A study of Mus musculus with 24 samples.

Results

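The genes named Nduf were followed here. They encode the nuclear-encoded subunits of respiratory complex I, a set of its assembly factors, and a pair of relatives. A member was any probe set annotated with exactly 1 gene symbol that starts with Nduf, whatever its value. The rule gave 88 of 45037 probe sets and 44 of 18193 genes. A further 10 probe sets that carry an Nduf symbol together with other symbols were left out of all counts. Of the 44 genes, 22 had 1 probe set and 22 had several, up to 6.

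Transcripts of 24 mouse hearts, taken at 90 days of age, were measured on Affymetrix arrays, 6 hearts for each of 4 genotypes. ARG and GLY mice carried the human beta1-adrenergic receptor in its Arg389 or its Gly389 form, AC5 mice carried human AC5 (type 5 adenylyl cyclase), and NTG mice were non-transgenic. Each transgene was driven in cardiac myocytes by the alpha-myosin heavy chain promoter, so transgenic and NTG hearts also differ in carrying a human cDNA under that promoter. Sex, strain and the number of founder lines are not given in the labels used here. The deposited values are ratios to the non-transgenic level, close to 1 in NTG hearts. They show how a transcript differs between hearts but not how abundant it is, and so neither the level of a gene nor the labelled tissue could be checked against its markers. Array medians of the log2 ratio lay between -0.05 and 0.09 over the 24 arrays, and the number of hearts limits the precision. In bulk tissue, fewer cells of a type and less RNA per cell cannot be told apart.

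Complex I, the NADH:ubiquinone oxidoreductase, is the largest enzyme of the respiratory chain and sits in the mitochondrial inner membrane. Its N module takes electrons from NADH, the Q module hands them through iron-sulphur clusters to ubiquinone, and the membrane arm pumps protons. The core subunits carry the catalysis, and the accessory subunits surround and stabilise them. Assembly factors join the modules from separate intermediates and do not stay in the finished enzyme. Heart muscle, which beats without pause on oxidative metabolism, is rich in these proteins. The beta1-adrenergic receptor raises cyclic AMP through adenylyl cyclase when noradrenaline binds, which drives the rate and force of the heartbeat and with them the demand for respiration. The Arg389 form of the receptor is known for stronger coupling to this pathway than the Gly389 form. The core subunits encoded by mitochondrial DNA (7 listed) were not measured on the probe sets used here.

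ARG hearts had lower transcript ratios than NTG hearts at 15 of 44 Nduf genes, each at 1 or more of its probe sets. The largest falls lay at single probe sets of Ndufab1 and Ndufa10, and all probe sets of Ndufv1 and Ndufa5 fell. Of the 88 probe sets, 20 fell and 0 rose in ARG against NTG at an adjusted p under 0.05 (limma with Benjamini-Hochberg adjustment over all 45037 probe sets). That is 22.7% of the members, while 5.63% of all probe sets fell, 4.04% rose and 9.67% were called in either direction. The median SE of the log2 change was 0.078 over the members and 0.099 over all probe sets. A change of a given size is thus called more readily among the members. The calls belonged to 15 genes, and 29 genes had no call. Of the 22 genes with several probe sets, 2 fell at all of them, 7 at some and 13 at none. In sign alone, 74 of 88 probe sets lay lower in ARG and 14 higher, but only 63 lay lower without ARG replicate 4 and 57 with replicates 1 to 3 alone. The median log2 change was -0.10 over the members and 0.0042 over all probe sets. At 15 probe sets every ARG heart lay below every NTG heart, as was so at 3.79% of all probe sets. At an unadjusted p under 0.05, 31 fell and 0 rose.

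In GLY hearts the falls lay in the N and Q modules and the membrane arm, at Ndufab1, Ndufa10, Ndufs1, Ndufs4, Ndufv1, Ndufb8 and Ndufa5. In GLY against NTG 10 probe sets of 7 genes fell and 0 rose, 11.4% of the members, while 3.53% of all probe sets fell and 1.55% rose. The signs were nearly even, with 47 probe sets lower and 41 higher, and the median was -0.013 over members and 0.031 over all probe sets. In AC5 against NTG 2 probe sets fell (Ndufab1 and Ndufa10) and 0 rose, 2.27% of the members, while 0.0733% of all probe sets fell and 0.0688% rose. There 62 probe sets were lower and 26 higher, with a median of -0.031. The comparisons share the NTG hearts, so their values are given side by side below and no likeness between them is tested.

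**Figure D1:**
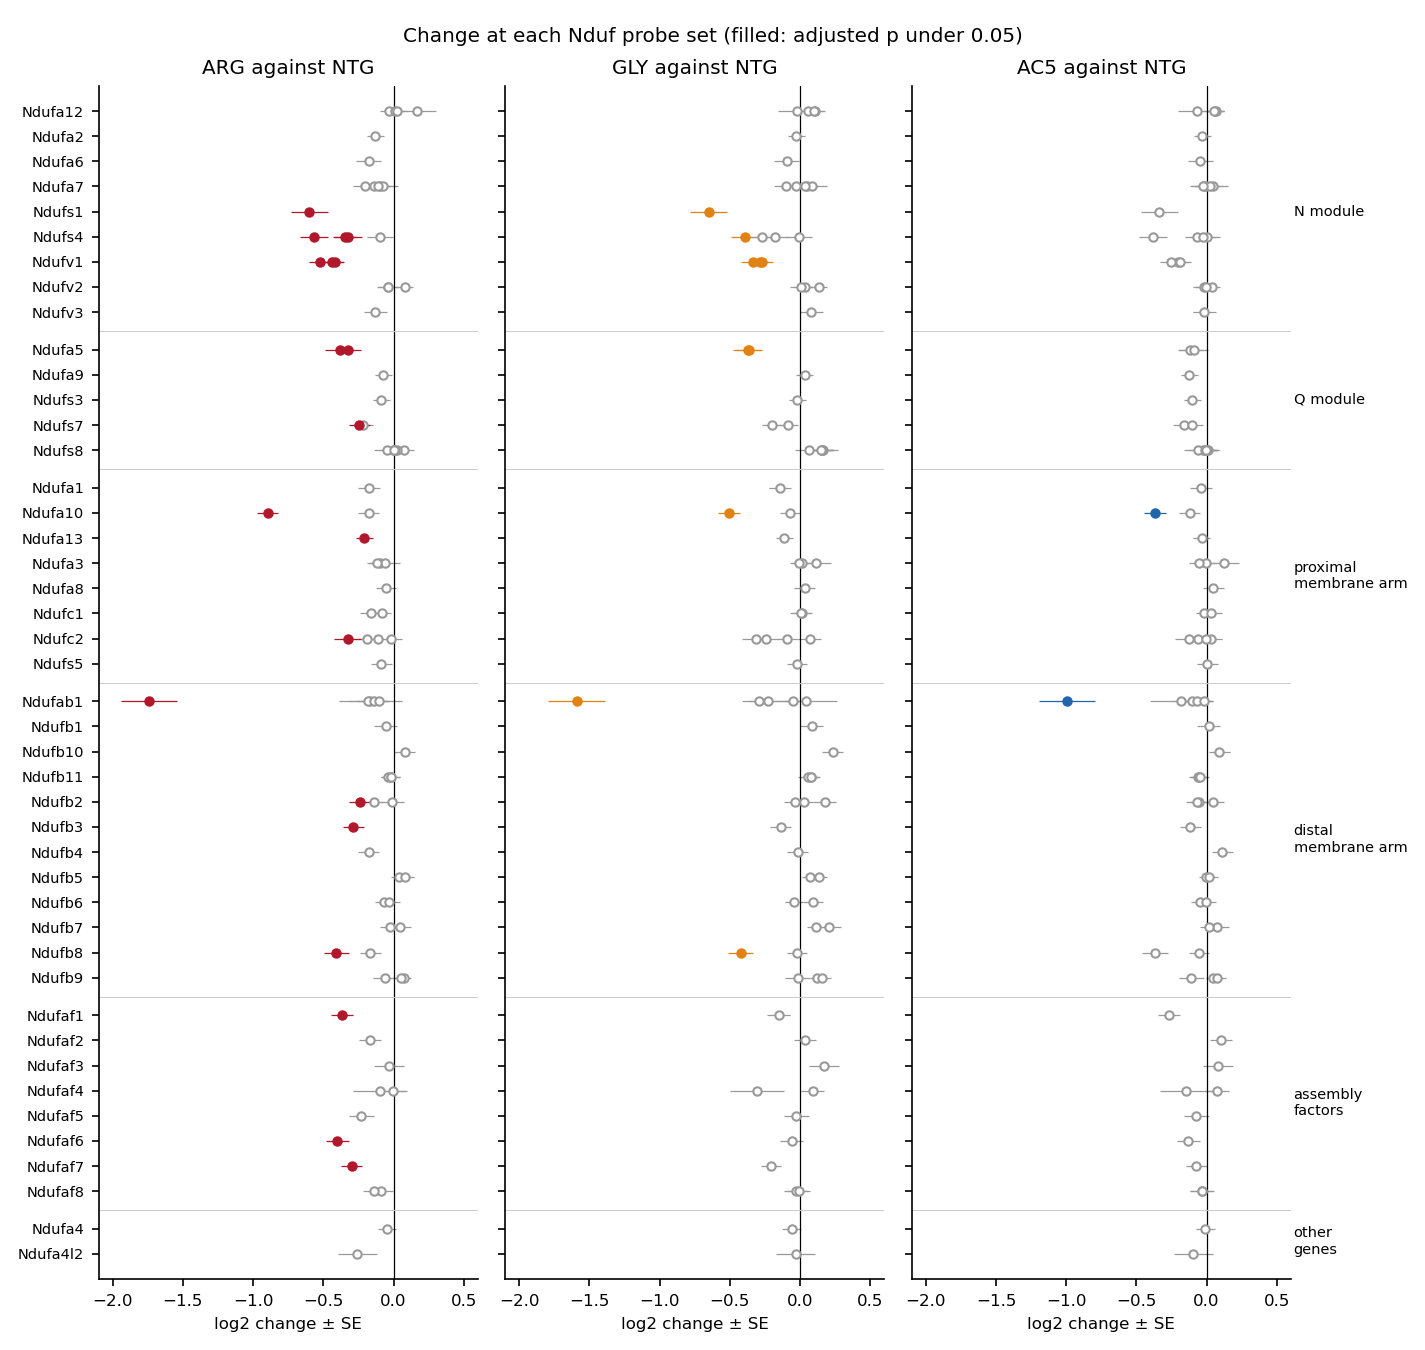
Log2 change ± SE at each of the 88 Nduf probe sets (horizontal axis) by gene (vertical axis, grouped by the part of complex I), in ARG, GLY and AC5 against NTG, n = 6 hearts a genotype. Filled points passed an adjusted p under 0.05: 20 in ARG, 10 in GLY and 2 in AC5, all to the left of 0.

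The N module, which holds the NADH site, had 7 of 23 probe sets fall in ARG (30.4%, 3 of 9 genes) and 5 of 23 in GLY, with 0 in AC5. All 7 belonged to Ndufv1, Ndufs1 and Ndufs4. Ndufv1 encodes the core subunit that binds NADH and the flavin FMN. At its probe set 1415966_a_at the ratio ran from 0.644 to 0.806 in ARG hearts (median 0.732), 0.715 to 0.997 in GLY hearts (median 0.790), 0.737 to 0.963 in AC5 hearts (median 0.871) and 0.985 to 1.09 in NTG hearts (median 1.03). All ARG and all AC5 hearts lay below the lowest NTG heart, and 5 of 6 GLY hearts did. The log2 change was -0.52 ± 0.081 (SE) in ARG (adjusted p = 6.99e-05, limma), a fall by 30.3%, and -0.34 in GLY (adjusted p = 0.0142), with -0.25 in AC5 (adjusted p = 0.311).

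The other Ndufv1 probe sets gave similar ranges. At 1415967_at the ratio was 0.713 to 0.789 in ARG hearts (median 0.771), 0.724 to 0.980 in GLY hearts (median 0.840), 0.842 to 0.934 in AC5 hearts (median 0.883) and 0.952 to 1.08 in NTG hearts (median 1.01). The ARG hearts were tightly grouped there, and both the ARG and the AC5 hearts lay wholly below the NTG hearts. At 1456015_x_at the ratio was 0.704 to 0.829 in ARG hearts (median 0.764), 0.748 to 0.985 in GLY hearts (median 0.828), 0.762 to 1.01 in AC5 hearts (median 0.909) and 0.989 to 1.10 in NTG hearts (median 1.03). Only the AC5 hearts overlapped the NTG hearts at that probe set. Both probe sets fell in ARG, by -0.42 ± 0.067 and -0.44 ± 0.075 on the log2 scale, and in GLY, by -0.29 and -0.27. The GLY call at 1456015_x_at was lost in 9 of 24 fits that each left out 1 heart (log2 change -0.31 to -0.23), any of GLY replicates 2, 4, 5 and 6 or of NTG replicates 1, 2, 3, 5 and 6.

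Ndufs1 encodes the largest core subunit, which carries iron-sulphur clusters, and had 1 probe set (1425143_a_at). Its ratio was 0.560 to 0.719 in ARG hearts (median 0.665), 0.408 to 0.812 in GLY hearts (median 0.717), 0.703 to 0.901 in AC5 hearts (median 0.754) and 0.932 to 1.04 in NTG hearts (median 0.977). Every transgenic heart lay below every NTG heart, and the GLY hearts were split, with replicates 1 and 3 at 0.439 and 0.408 and the other 4 at 0.673 or more. Ndufs1 fell by 34.0% in ARG (log2 change -0.60 ± 0.13, adjusted p = 0.00268, limma) and by 36.4% in GLY (-0.65 ± 0.13, adjusted p = 0.00369). In AC5 the log2 change was -0.34 with an adjusted p of 0.495, so that difference did not pass the test over all probe sets.

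Ndufs4 encodes an accessory subunit at the joint of the N and Q modules, whose loss in mice causes a Leigh-like disease of the brain. At 1418117_at its ratio was 0.532 to 0.804 in ARG hearts (median 0.680), 0.596 to 0.870 in GLY hearts (median 0.843), 0.653 to 0.820 in AC5 hearts (median 0.788) and 0.912 to 1.06 in NTG hearts (median 0.999). No transgenic heart reached the lowest NTG heart. The fall was by 32.6% in ARG (log2 change -0.57 ± 0.10, adjusted p = 0.0003) and by 23.8% in GLY (-0.39 ± 0.10, adjusted p = 0.0211), and AC5 stood at -0.38 (adjusted p = 0.157), all by limma. The GLY call was lost without GLY replicate 1, without GLY replicate 3 or without NTG replicate 3 (log2 change -0.43 to -0.32 over all single omissions). Of the gene's other probe sets, 1448959_at (-0.35 ± 0.087) and 1438166_x_at (-0.32 ± 0.097) fell in ARG, while 1459760_at stood at -0.094 and was not called. The call at 1438166_x_at was lost in 6 of 24 single omissions, ARG replicates 1, 4 and 5 and NTG replicates 2, 3 and 5, with changes of -0.35 to -0.28.

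The remaining N module genes, Ndufv2, Ndufv3, Ndufa2, Ndufa6, Ndufa7 and Ndufa12, had no call in any of the comparisons with NTG. The largest uncalled fall in ARG was -0.21 at an Ndufa7 probe set (adjusted p = 0.159), and the largest uncalled rise was 0.16 ± 0.14 at Ndufa12 (adjusted p = 0.587). Ndufv2, the iron-sulphur partner of Ndufv1, stood at 0.078 ± 0.060 at one of its probe sets. The core subunits as a group, those that carry catalysis, had 5 of 16 probe sets fall in ARG (31.2%) and 4 of 16 in GLY, all of Ndufv1 and Ndufs1 but for 1 of Ndufs7 in ARG.

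**Figure D2:**
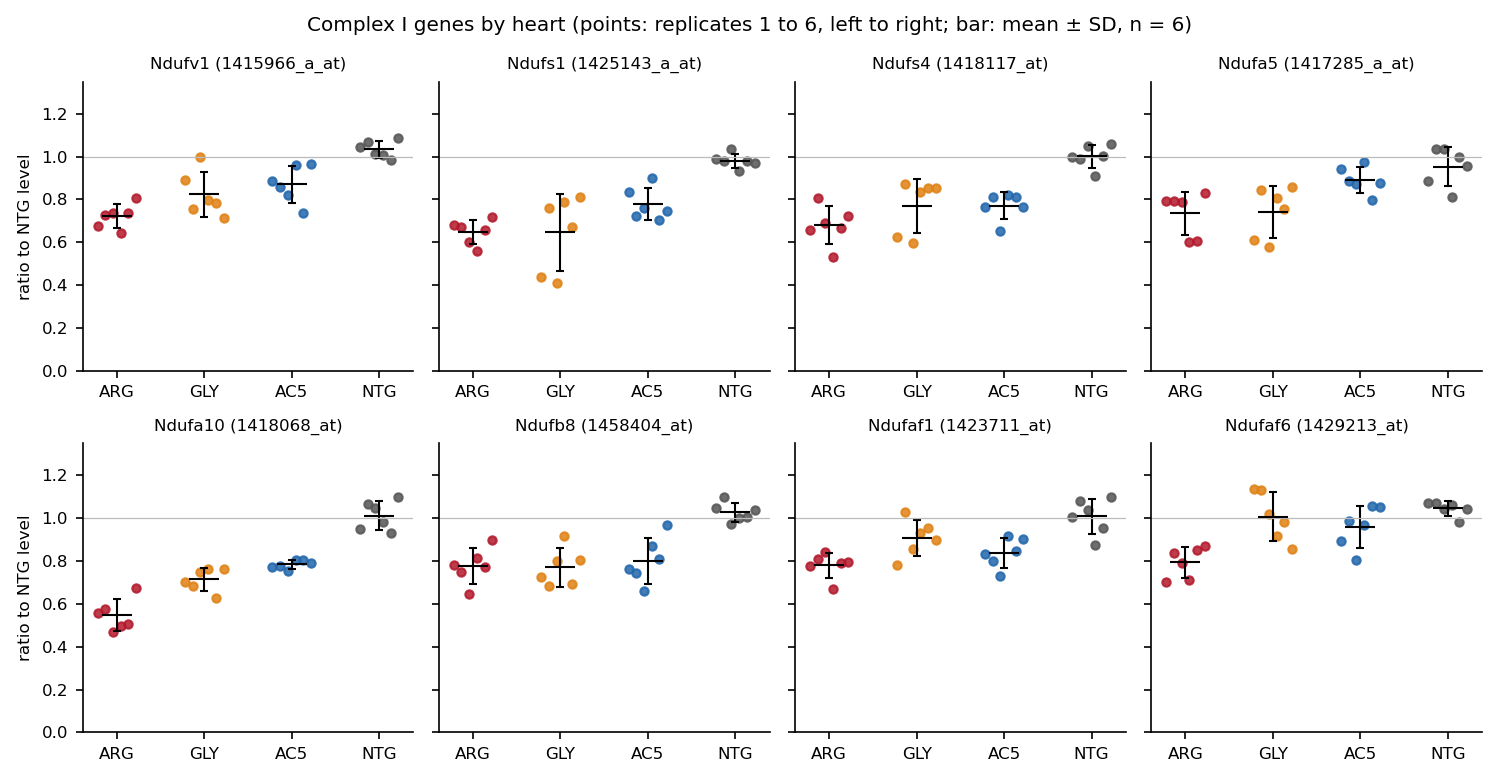
Ratio to the NTG level in each heart (vertical axis, from 0) for 8 probe sets, with ARG, GLY, AC5 and NTG hearts from left to right within each panel, replicates 1 to 6 drawn left to right, and bars at mean ± SD (n = 6). At Ndufs1 the GLY hearts are split, with replicates 1 and 3 at 0.439 and 0.408, and at Ndufa10 the ARG hearts reach from 0.468 to 0.675, below all NTG hearts.

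The Q module had 3 of 12 probe sets fall in ARG (25% of them, 2 of 5 genes) and 2 of 12 in GLY. Both probe sets of Ndufa5, an accessory subunit of this module, fell in both. At 1417285_a_at the ratio was 0.604 to 0.828 in ARG hearts (median 0.789), 0.576 to 0.858 in GLY hearts (median 0.780), 0.799 to 0.973 in AC5 hearts (median 0.883) and 0.809 to 1.03 in NTG hearts (median 0.976). Here 5 of 6 ARG hearts and 4 of 6 GLY hearts lay below the lowest NTG heart. The change was -0.38 ± 0.10 in ARG (adjusted p = 0.0159, limma) and -0.37 ± 0.10 in GLY (adjusted p = 0.0334). At 1417286_at, where all ARG and GLY hearts lay below all NTG hearts, it was -0.32 ± 0.089 and -0.36 ± 0.089. The AC5 values were -0.09 at 1417285_a_at and -0.11 at 1417286_at, neither called.

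The Ndufa5 calls leaned on few hearts. In ARG the call at 1417286_at was lost without replicate 4 (changes -0.35 to -0.26 over all single omissions), and that at 1417285_a_at without replicate 4 or without replicate 5 (-0.43 to -0.33). In GLY the call at 1417286_at was lost without replicate 3 (-0.40 to -0.31), and that at 1417285_a_at without replicate 1 or 3 or without any of NTG replicates 2, 3, 5 and 6 (-0.42 to -0.30). Ndufs7, a core subunit that holds the last iron-sulphur cluster before ubiquinone, fell in ARG at 1424313_a_at (-0.24 ± 0.076, adjusted p = 0.0391, limma) and stood at -0.22 at 1451312_at (adjusted p = 0.0629). That call was lost in 8 of 24 single omissions, ARG replicates 2, 4 and 5 and NTG replicates 1, 2, 3, 5 and 6 (changes -0.27 to -0.19). Ndufa9, Ndufs3 and Ndufs8 had no call.

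The proximal membrane arm had 3 of 15 probe sets fall in ARG (20%, 3 of 8 genes), 1 in GLY and 1 in AC5. Ndufa10, an accessory subunit with a kinase-like fold that is a known phosphorylation target, separated all transgenic hearts from NTG hearts. At 1418068_at the ratios of replicates 1 to 6 were 0.559, 0.575, 0.468, 0.495, 0.504 and 0.675 in ARG hearts and 0.702, 0.683, 0.749, 0.761, 0.626 and 0.761 in GLY hearts. They were 0.773, 0.775, 0.753, 0.806, 0.806 and 0.788 in AC5 hearts and 0.949, 1.06, 1.05, 0.981, 0.929 and 1.10 in NTG hearts. Every transgenic heart lay below every NTG heart, and 5 of 6 ARG hearts lay below the lowest GLY heart. Ndufa10 fell by 46.3% in ARG (log2 change -0.90 ± 0.078, adjusted p = 2.66e-08, limma), by 29.5% in GLY (-0.50 ± 0.078, adjusted p = 0.000362) and by 22.4% in AC5 (-0.37 ± 0.078, adjusted p = 0.0499). The AC5 call stood at the threshold and was lost in 20 of 24 single omissions, all those of AC5 and NTG hearts among them, with changes of -0.39 to -0.34, and after centring each array on its median.

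The second Ndufa10 probe set, 1448934_at, did not follow. It stood at -0.18 in ARG, -0.072 in GLY and -0.12 in AC5, none of them called. The difference between both probe sets within each heart was tested with limma over all 30372 pairs of probe sets of 1 gene, and it changed by -0.72 ± 0.11 in ARG (adjusted p = 0.000107) and by -0.43 ± 0.11 in GLY (adjusted p = 0.0166). Probe sets of a gene can read different transcript ends, and which transcripts these read is not analysed here.

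Ndufa13, also called GRIM-19, is an accessory subunit with a further known role in cell death. At 1430713_s_at it was 0.786 to 0.916 in ARG hearts (median 0.870) and 0.962 to 1.09 in NTG hearts (median 0.988), without overlap, a change of -0.21 ± 0.061 (adjusted p = 0.0252, limma). Its call was lost without ARG replicate 4, without NTG replicate 2 or without NTG replicate 3 (-0.23 to -0.18). Probe sets 1439903_at and 1452641_at carry Ndufa13 together with Yjefn3 and were left out of the counts. They stood at -0.024 and -0.13 in ARG, neither called. Ndufc2, an accessory subunit of the membrane arm, fell in ARG at 1 of 4 probe sets, 1460506_s_at (-0.33 ± 0.096, adjusted p = 0.027), and stood at -0.32 in GLY with an adjusted p of 0.0514. The Ndufc2 call was lost in 5 of 24 single omissions, ARG replicates 4 and 5 and NTG replicates 1, 2 and 5 (-0.38 to -0.28). By the maker's naming, the suffix _s_at marks probe sets whose probes may match transcripts of more than 1 gene, and _x_at those with some probes that may cross-hybridise. Ndufa1, Ndufa3, Ndufa8, Ndufc1 and Ndufs5 had no call.

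The distal membrane arm had 4 of 26 probe sets fall in ARG (15.4%, 4 of 12 genes), with 2 in GLY and 1 in AC5. It also held the largest change of any member. Ndufab1 encodes the mitochondrial acyl carrier protein, which is both a complex I subunit and the carrier on which mitochondria build fatty acids and the precursor of lipoic acid. At 1435934_at the ratios of replicates 1 to 6 were 0.339, 0.319, 0.230, 0.286, 0.247 and 0.363 in ARG hearts and 0.217, 0.348, 0.209, 0.460, 0.371 and 0.439 in GLY hearts. They were 0.525, 0.407, 0.348, 0.747, 0.530 and 0.482 in AC5 hearts and 0.814, 1.20, 1.31, 0.637, 1.04 and 1.04 in NTG hearts. All ARG and GLY hearts lay below the lowest NTG heart, and the AC5 hearts overlapped NTG through 1 heart. This probe set fell by 70.1% in ARG (log2 change -1.74 ± 0.20, adjusted p = 1.12e-06, limma), by 66.8% in GLY (-1.59 ± 0.20, adjusted p = 3.09e-05) and by 49.8% in AC5 (-0.99 ± 0.20, adjusted p = 0.0345). The AC5 call was lost in 10 of 24 single omissions, those of AC5 replicates 1, 2, 3, 5 and 6 and of NTG replicates 1, 2, 3, 5 and 6 (-1.12 to -0.89), and after centring each array on its median.

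The other 4 Ndufab1 probe sets stood at -0.18 to -0.11 in ARG, -0.29 to 0.042 in GLY and -0.18 to -0.019 in AC5, with no call. The fall at 1435934_at was therefore tested against each of them within hearts. It differed from all 4 in ARG, by -1.63 to -1.56 on the log2 scale for the 3 pairs written in that direction and by 1.57 for the pair written the other way. It differed from all 4 in GLY and from 3 of 4 in AC5. Over all Nduf genes, 5 of 81 such pairs differed in ARG (6.17%, and 5.12% of all pairs), 6 in GLY (7.41%, and 4.98% of all pairs) and 3 in AC5 (3.70%, and 0.0691% of all pairs). Which probe set reflects the Ndufab1 messenger as a whole was not tested.

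**Figure D3:**
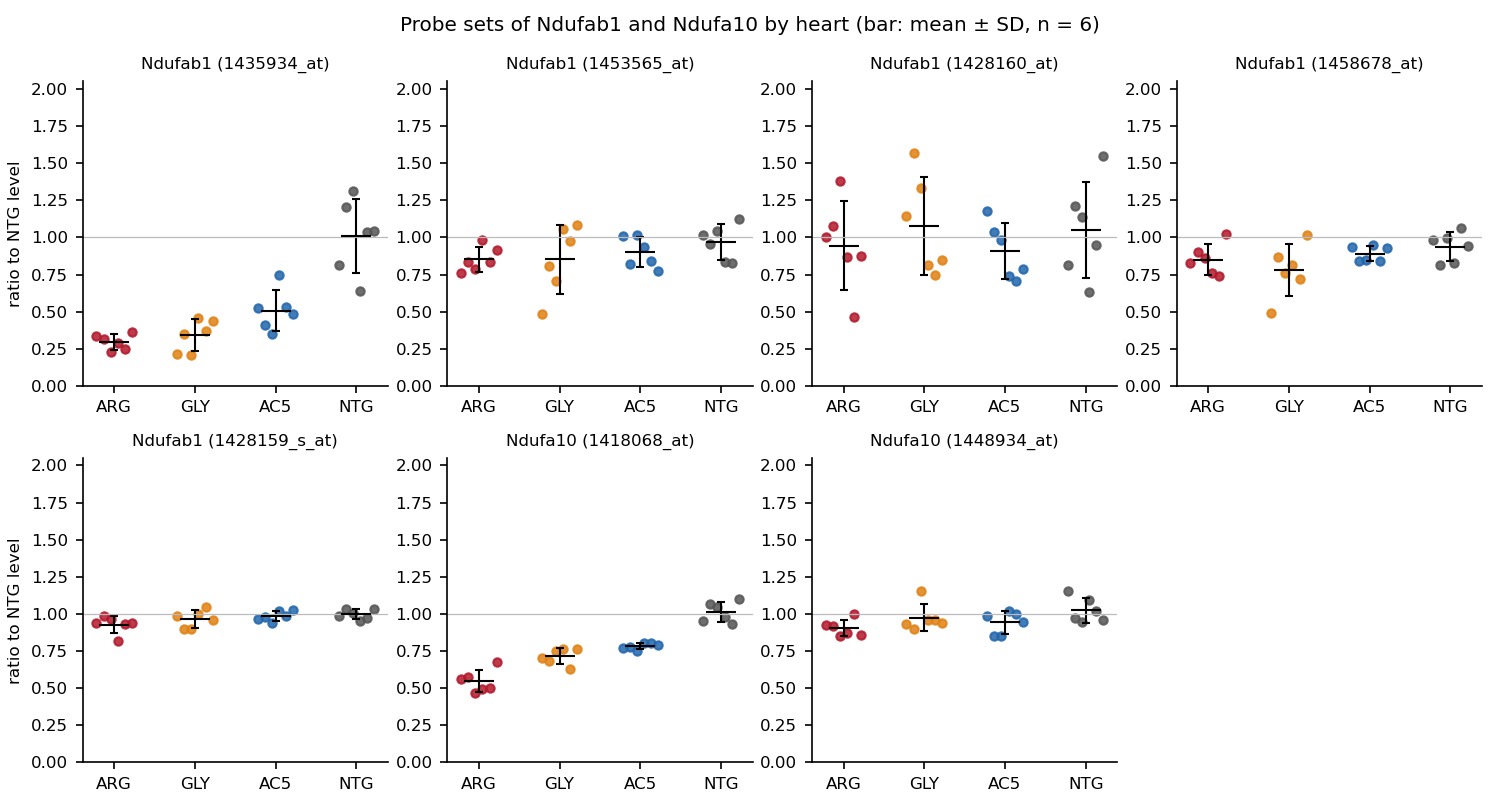
Ratio to the NTG level in each heart (vertical axis, from 0) at the 5 probe sets of Ndufab1 and the 2 probe sets of Ndufa10, with ARG, GLY, AC5 and NTG from left to right, replicates 1 to 6 drawn left to right, and bars at mean ± SD (n = 6). At 1435934_at of Ndufab1 the ARG and GLY hearts sit below all NTG hearts and 1 AC5 heart overlaps NTG, and at 1418068_at of Ndufa10 all transgenic hearts sit below NTG.

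Ndufb8, an accessory subunit whose protein is commonly used as a marker of assembled complex I, fell at 1 of its 2 probe sets. At 1458404_at its ratio was 0.645 to 0.898 in ARG hearts (median 0.778), 0.681 to 0.916 in GLY hearts (median 0.764), 0.658 to 0.967 in AC5 hearts (median 0.785) and 0.972 to 1.10 in NTG hearts (median 1.02). The 3 transgenic genotypes covered nearly the same range, wholly below NTG. The change was -0.41 ± 0.090 in ARG (adjusted p = 0.00304, limma), -0.42 ± 0.090 in GLY (adjusted p = 0.00593) and -0.37 in AC5 (adjusted p = 0.114). At 1448198_a_at the values were -0.17, -0.021 and -0.053 in ARG, GLY and AC5, and the probe sets differed from each other in GLY (-0.40 ± 0.12, adjusted p = 0.0419).

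Of the remaining distal subunits, Ndufb3 fell in ARG by 18.1% (-0.29 ± 0.075, adjusted p = 0.0118, limma) and Ndufb2 at 1 of 3 probe sets, 1416834_x_at, by 15.3% (-0.24 ± 0.076, adjusted p = 0.0447). Both encode small accessory subunits. The Ndufb2 call was lost in 12 of 24 single omissions, ARG replicates 4 and 5 and 5 of 6 NTG hearts among them (-0.27 to -0.19). Ndufb1, Ndufb4, Ndufb5, Ndufb6, Ndufb7, Ndufb9, Ndufb10 and Ndufb11 had no call against NTG. Some leaned upwards in GLY: the largest value not called was 0.23 at Ndufb10 (adjusted p = 0.0683). At an Ndufb9 probe set (1452184_at) all GLY hearts, 1.05 to 1.14, lay above all NTG hearts, 0.978 to 1.03, with a change of 0.12 and an adjusted p of 0.203. It was the only member wholly above NTG in GLY, while 8 lay wholly below, against 1.07% and 1.61% of all probe sets.

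Assembly factors named Nduf had 3 of 10 probe sets fall in ARG (30%, 3 of 8 genes), and 0 in GLY and in AC5. Ndufaf1 helps build the membrane arm together with Acad9 and Ecsit. Its ratio was 0.667 to 0.843 in ARG hearts (median 0.791), 0.779 to 1.03 in GLY hearts (median 0.913), 0.728 to 0.916 in AC5 hearts (median 0.839) and 0.875 to 1.10 in NTG hearts (median 1.02). ARG hearts lay wholly below NTG, while GLY and AC5 overlapped it. Ndufaf1 fell by 22.6% in ARG (-0.37 ± 0.079, adjusted p = 0.00219, limma), with -0.15 in GLY (adjusted p = 0.3) and -0.27 in AC5 (adjusted p = 0.239).

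Ndufaf6 acts early, on the part of the membrane arm built around a mitochondrially encoded subunit. Its ratio was 0.702 to 0.868 in ARG hearts (median 0.813), 0.855 to 1.14 in GLY hearts (median 1.00), 0.803 to 1.06 in AC5 hearts (median 0.976) and 0.981 to 1.07 in NTG hearts (median 1.05). GLY hearts spread around the NTG level, and ARG hearts stood below it. The change was -0.40 ± 0.082 in ARG (adjusted p = 0.00145, limma) and -0.06 in GLY (adjusted p = 0.762). Ndufaf7, an arginine methyltransferase of the mitochondrion, fell in ARG at 1427904_s_at (-0.30 ± 0.073, adjusted p = 0.00733), with -0.21 in GLY (adjusted p = 0.103) although all GLY hearts lay below NTG. Ndufaf2, Ndufaf3, Ndufaf4, Ndufaf5 and Ndufaf8 were not called against NTG. Neither was Ndufa4, a relative now placed in cytochrome oxidase (-0.044 ± 0.065 in ARG), nor its hypoxia-inducible relative Ndufa4l2 (-0.26 ± 0.14, adjusted p = 0.319).

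**Figure D4:**
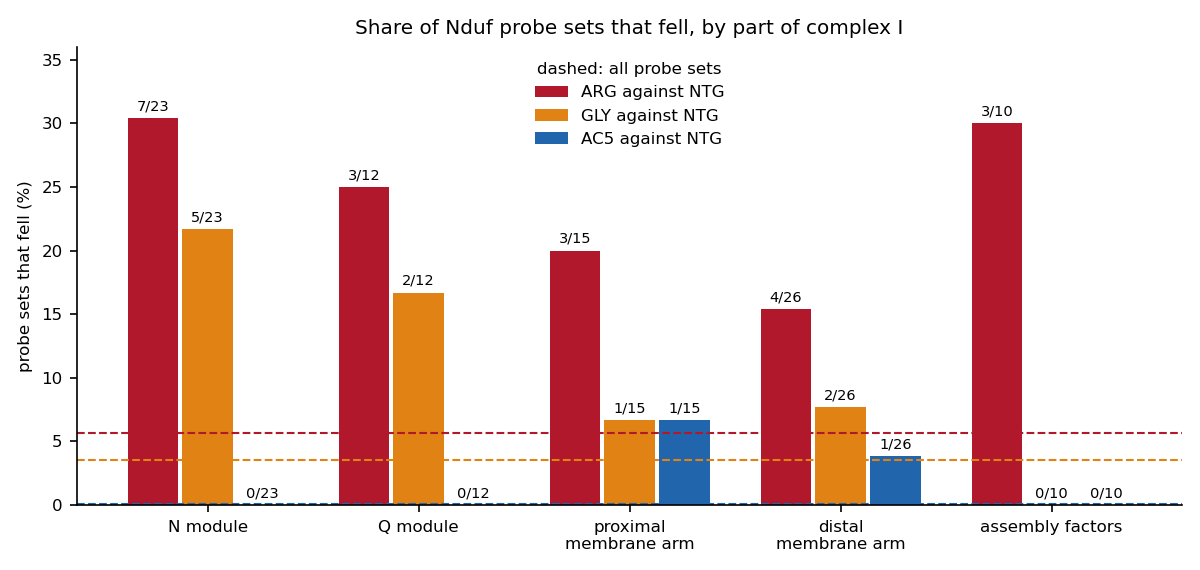
Share of Nduf probe sets that fell (vertical axis, percent, from 0) in each part of complex I, with bars for ARG, GLY and AC5 against NTG, the counts above them and dashed lines at the share of all probe sets (5.63% for ARG, 3.53% for GLY and 0.0733% for AC5, the last close to the axis). In ARG the share runs from 15.4% in the distal membrane arm to 30.4% in the N module, and the assembly factors have 3 of 10 in ARG and 0 of 10 in GLY and AC5. Genes differ in their number of probe sets. Counted by genes with a fall in ARG, the N module has 3 of 9 and the Q module 2 of 5. The proximal arm has 3 of 8, the distal arm 4 of 12 and the assembly factors 3 of 8.

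ARG and GLY, the forms of 1 receptor, were also compared with each other. Of the 88 probe sets 2 fell in ARG against GLY and 0 rose, 2.27% of the members, while 0.713% of all probe sets fell and 0.793% rose. Yet 79 probe sets were lower in ARG and 9 higher, with a median of -0.10 over the members and -0.025 over all probe sets. Ndufa10 at 1418068_at fell by 23.9% (-0.39 ± 0.078, adjusted p = 0.00727, limma). It kept the call in all 24 single omissions, but lost it in 6 of 12 other settings, namely quantile normalization, the linear scale, a trended and robust variance prior, only the arrays of both genotypes, and replicates 1 to 3 or 4 to 6 alone. Ndufaf6 fell by 21.0% (-0.34 ± 0.082, adjusted p = 0.0291, limma). That call was lost without any 1 of GLY replicates 1, 2, 3 and 5 or of ARG replicates 1 and 4 (-0.39 to -0.30). It was kept in only 5 of 12 other settings. Quantile normalization, array weights, 1 weight per genotype and a fit of only the arrays of both genotypes lost it. So did leaving out GLY replicates 1 and 3 and ARG replicate 1, and replicates 1 to 3 or 4 to 6 alone. No member separated ARG from GLY without overlap, as against 0.531% of all probe sets with ARG wholly below. The other 86 probe sets did not pass the test of the difference between the receptor forms.

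ARG was also lower than AC5 at 4 probe sets and higher at 0, 4.55% of the members, while 2.41% of all probe sets fell and 2.52% rose. They were Ndufa10 (-0.53 ± 0.078, adjusted p = 8.63e-05, limma) and Ndufab1 (-0.75 ± 0.20, adjusted p = 0.0253) at the probe sets above, Ndufb4 (-0.29 ± 0.075, adjusted p = 0.0197) and the assembly factor Ndufaf2 (-0.27 ± 0.077, adjusted p = 0.0411). Ndufb4 had ratios of 0.803 to 1.03 in ARG hearts (median 0.877) and 0.966 to 1.18 in AC5 hearts (median 1.07), and Ndufaf2 0.743 to 1.05 in ARG hearts (median 0.928) and 1.02 to 1.30 in AC5 hearts (median 1.08). Both lay near 1 in NTG hearts and were not called against NTG. The 4 calls in ARG against AC5 were not followed singly over other settings. The count of falls was 2 after quantile normalization, and 2 without any 1 of AC5 replicates 1 and 4 or ARG replicates 2, 4 and 5. With array weights it was 10. In GLY against AC5 0 members were called by limma, 0.693% of all probe sets were called in either direction, and at an unadjusted p under 0.05 6 members fell and 3 rose.

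The falls were not spread evenly over hearts. In ARG, replicates 4 and 5 were the lowest hearts together at 39 of 88 members (44.3%), and at 9.57% of all probe sets. The median log2 ratio over the members was -0.28 in ARG replicate 4 and -0.17 in replicate 5, and -0.094 to -0.017 in the other 4 ARG hearts, while NTG hearts lay between -0.078 and 0.055. Over all probe sets the median was -0.048 in ARG replicate 4, the lowest of the 24 arrays, and -0.0059 in ARG replicate 5. Without ARG replicate 4 the count in ARG against NTG was 13, and without replicate 5 or NTG replicate 2 it was 15. In GLY, replicates 1 and 3 were the lowest hearts together at 21 of 88 members (23.9%, and 15.8% of all probe sets), among them the calls at Ndufab1, Ndufa5, Ndufs1 and Ndufs4 (1418117_at). Replicates 4 and 6 were the lowest pair at 22 members (25%, and 13.5% of all probe sets). Over all members GLY replicates 1 and 3 had the highest medians of the GLY hearts, 0.068 and 0.026, and replicate 6 the lowest, -0.054. The same GLY arrays had the highest and the lowest medians over all probe sets, 0.087, 0.044 and -0.026. The arrays of GLY replicates 1 and 3 also had the lowest array weights estimated by limma (0.354 and 0.312).

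NTG ratios centred near 1 separately in replicates 1 to 3 and in replicates 4 to 6, a split the labels do not name. Fitted alone, replicates 1 to 3 gave 6 falls in ARG and 9 in GLY, with 2.16% and 4.78% of all probe sets falling. Replicates 4 to 6 alone gave 8 falls in ARG and 0 in GLY, with 2.54% and 0.0866% of all probe sets falling. After quantile normalization of the arrays, 13 of the 20 ARG calls and 7 of the 10 GLY calls were kept, without those in ARG at Ndufa13, Ndufb2, Ndufb3, Ndufc2 and Ndufs7 and at 1 probe set each of Ndufa5 and Ndufs4, and without those in GLY at Ndufa5 and Ndufs4. The ARG calls at Ndufa10 (1418068_at), Ndufab1 (1435934_at) and Ndufv1 (1415966_a_at and 1456015_x_at) passed in 24 of 24 fits without single hearts and in 12 of 12 other settings.

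Genes around complex I were read at 1 probe set a gene, from lists chosen for their link to the enzyme. Of 12 measured assembly factors with other names, 7 fell and 1 rose in ARG, 5 fell in GLY and 0 were called in AC5, while 5.63% of all probe sets fell in ARG and 3.53% in GLY. With 1 probe set a gene and p-values adjusted over those, 7.52% of all genes fell in ARG and 4.41% in GLY, the shares beside which the lists can be read. Acad9, which works with Ndufaf1, stood at -0.97 ± 0.21 in ARG and -0.98 ± 0.21 in GLY (adjusted p = 0.00243 and 0.00608, limma), called at 2 of its 3 probe sets. Foxred1, an oxidoreductase needed for the mid-stage of assembly, fell by -0.67 ± 0.080 in ARG and -0.46 ± 0.080 in GLY. Tmem126b, a partner of Acad9 and Ndufaf1, fell by -0.64 in ARG and -0.53 in GLY, Aifm1, the flavoprotein that aids import of assembly proteins, by -0.53 and -0.74, and Nubpl, which delivers iron-sulphur clusters, by -0.43 and -0.27. Lyrm2 (-0.50, called at 1 of 2 probe sets) and Tmem186 (-0.43, called at 3 of 4) fell in ARG. In GLY the probe sets read for both were not called by limma (-0.50 with an adjusted p of 0.0673 and -0.28 with 0.0578). Timmdc1, a membrane assembly factor, rose in ARG (0.40 ± 0.13, adjusted p = 0.04).

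Other enzymes that feed ubiquinone, in parallel with complex I, fell in ARG at 7 of 12 genes and in GLY at 4, with 0 rising and 0 called in AC5 (7.52% and 4.41% of all genes fell in ARG and GLY). The median change over the list was -0.43 in ARG. In ARG they were Prodh (-0.59), which oxidises proline, Etfdh (-0.56), Etfa (-0.45) and Etfb (-0.40), which carry electrons from fatty acid oxidation, the complex II subunits Sdhd (-0.55) and Sdha (-0.47), and Dhodh (-0.47) of pyrimidine synthesis. In GLY they were Etfa (-0.56), Sdha (-0.53), Etfdh (-0.47) and Sdhd (-0.41). Etfdh was called at 1 of its 2 probe sets and Sdha at 2 of 4, in both ARG and GLY. Sdhd was called at 2 of 2 in ARG and 1 of 2 in GLY. In ARG 1 of 4 probe sets of Gpd2 and 1 of 2 of Sqor fell, and in GLY 1 of 2 of Dhodh, though not those read. Of mitochondrial fatty acid synthesis and lipoylation, the pathway that runs on the product of Ndufab1, 4 of 7 genes fell in ARG, the transferase Mcat (-0.62), the reductase subunit Cbr4 (-0.49) and the lipoyl transfer enzymes Lipt2 (-0.43) and Lipt1 (-0.36), and 1 in GLY, Cbr4 (-0.47). Lipt1 was called at 1 of its 3 probe sets. At the probe sets read, Mcat was the 1 gene of these lists that also fell in ARG against GLY (-0.46 ± 0.12, adjusted p = 0.0371). Of 13 transcriptional regulators of respiratory genes, such as Ppargc1a, Esrra and Nrf1, 0 were called in ARG by limma at the probe set read for each, with 2 at an unadjusted p under 0.05, and Gabpa fell in GLY (-0.77 ± 0.19, adjusted p = 0.0149, 1 of 2 probe sets). Over all 32 probe sets of these regulators 2 fell in ARG, 1 of 3 of Esrrb and 1 of 2 of Tfb1m, and 0 rose.

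**Figure D5:**
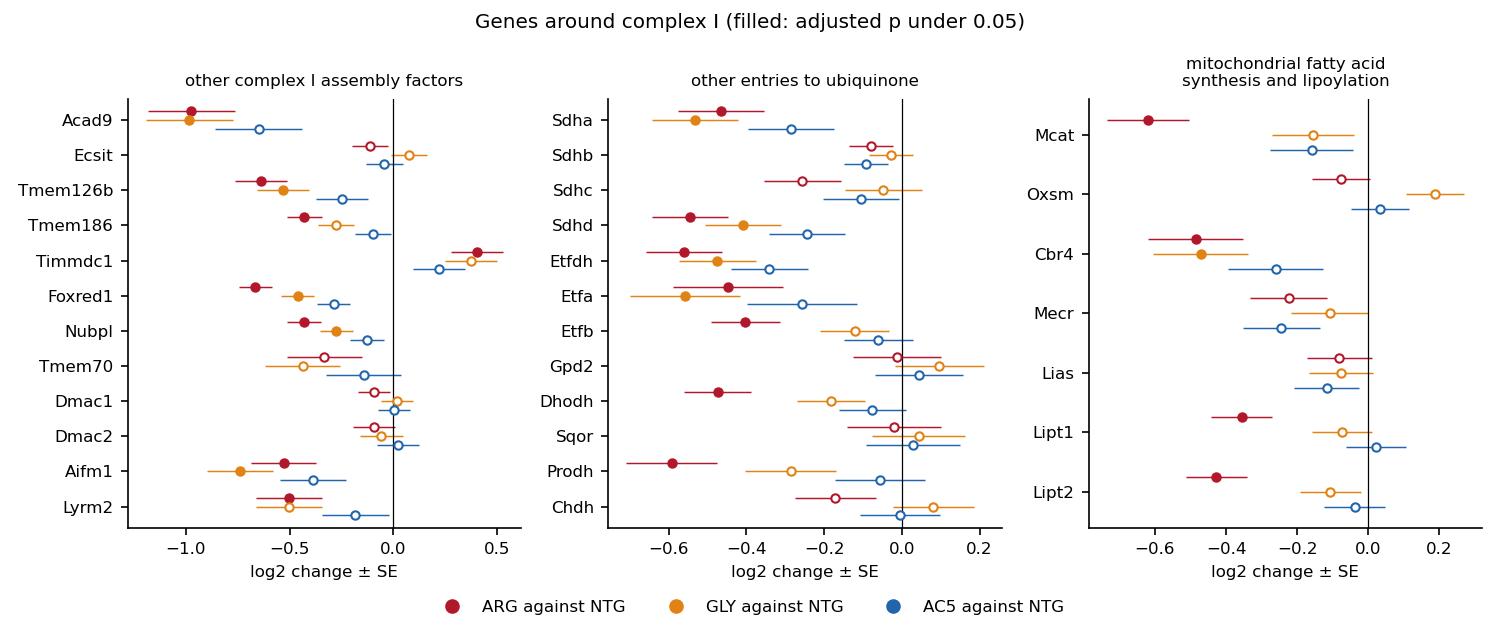
Log2 change ± SE (horizontal axis) in ARG, GLY and AC5 against NTG for other complex I assembly factors, other entries to ubiquinone and mitochondrial fatty acid synthesis genes (vertical axis), n = 6 hearts a genotype, filled where the adjusted p was under 0.05. Filled points lie left of 0 except for Timmdc1 in ARG, and there are none for AC5.

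Markers of other cells moved with genotype. In ARG 10 of 16 macrophage markers rose and 0 fell (median change 0.75), while 4.04% of all probe sets rose and 5.63% fell, and the median over the list had a range of 0.26 to 0.98 in ARG hearts, -0.29 to 0.57 in GLY hearts, -0.22 to 0.17 in AC5 hearts and -0.078 to 0.065 in NTG hearts, on the log2 scale. Of 12 fibroblast markers 7 rose and 1 fell in ARG, with list medians of 0.063 to 0.51 in ARG hearts, -0.28 to 0.51 in GLY hearts, -0.39 to -0.25 in AC5 hearts and -0.12 to 0.024 in NTG hearts. Of 14 endothelial markers 5 fell in ARG and 3 in GLY (3.53% of all probe sets fell in GLY), and 1 of 8 adipocyte markers fell in ARG. Of 16 cardiomyocyte markers 2 fell (Myl3 and Ttn) and 1 rose (Nppa) in ARG, with a median change of -0.069, and 1 fell in GLY (Ttn). The part of these shifts in the Nduf falls was not tested. Since the values are ratios, no marker can be said to be at 0.

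Promoter sequence was set beside these changes, since the Nduf genes are known targets of shared regulators. RefSeq windows (mouse build GRCm38.p6, 250 bases before to 50 after the annotated start) were matched by symbol for 39 of 44 Nduf genes, 41 windows in all, as 2 genes had 2 windows. The palindrome-like GC-rich motif of the respiratory regulator NRF1, searched like the others on both strands, was in 8 of 41 windows (19.5%) and in 4.60% of 32851 windows of all genes. It was in 2 of 14 windows of genes that fell in ARG and in 6 of 27 windows of the others. The 2 windows of genes that fell both belong to Ndufa5 and overlap, with 1 position matched, so that 1 gene that fell held it and 6 others did. The YY1 motif AAGATGGC was in 7 of 41 (17.1%, and 2.75% of all), with 3 of 14 among the genes that fell and 4 of 27 among the others. The letters AAGGTCA bound by oestrogen-related receptors as monomers were in 3 of 41 (7.32%, and 4.72% of all), and CCGGAAGT of GABPA in 1 of 41 (2.44%, and 3.89% of all). Matches of different motifs overlapped in 0 of the 41 windows. A match describes a sequence and not a bound site.

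The 100 bases before the start are shown for 3 genes, with the NRF1 match in capitals. They are Ndufa5, which fell at both probe sets in ARG and GLY and holds the motif on the opposite strand (chr6:24527691-24527790, minus strand), Ndufa8, which was not called and also holds it (chr2:36049339-36049438, minus strand), and Ndufv1, which fell at all 3 probe sets and has no match in its window (chr19:4012756-4012855, minus strand). In Ndufa5 the match begins 26 bases before the start and in Ndufa8 30 bases before it.
Ndufa5: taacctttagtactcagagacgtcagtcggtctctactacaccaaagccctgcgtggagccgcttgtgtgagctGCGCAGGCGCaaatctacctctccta
Ndufa8: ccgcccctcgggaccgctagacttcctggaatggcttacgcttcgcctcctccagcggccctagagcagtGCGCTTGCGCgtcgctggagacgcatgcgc
Ndufv1: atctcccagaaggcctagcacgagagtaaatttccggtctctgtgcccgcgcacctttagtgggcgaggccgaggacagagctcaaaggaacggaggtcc
The 3 genes are examples, and whether the motif goes with the falls was not tested.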

How the data were processed

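RNA of 24 hearts was labelled with biotin and hybridised to Affymetrix arrays, per the labels' protocols. The authors used RMA, per the submitters' processing notes, in a version not given here. Each deposited value is a linear ratio that centres near 1 in the non-transgenic arrays. That scale was read from the values and is stated nowhere in the sources used here, and which arrays formed the denominator is not known. A ratio keeps no signal level, so no filter on dim probe sets was applied.

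The table held 45101 probe sets. Without 64 Affymetrix controls, 45037 remained for the tests, of which 34945 had 1 gene symbol, 932 several and 9160 none in the platform annotation. Log2 of the deposited ratio was fitted with limma 3.58.1 (R 4.3.3) over all 24 arrays, with 1 mean per genotype and the default eBayes step. P-values were adjusted by the Benjamini-Hochberg method over all probe sets of a comparison, and an adjusted p under 0.05 counted as called ("rose" or "fell"). Errors of log2 changes are SE of the fitted difference. This fit shares 1 spread among the genotypes. The labels call the hearts biological replicates.

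For genes with several probe sets, the within-array difference of log2 ratios was fitted the same way over all 30372 pairs. Lists of other genes used 1 probe set a gene, taken by suffix and then lowest number. Both fits were checked on simulated data. The Nduf members, the gene lists and the tests were chosen with earlier results of these data known. All called members are named, and of uncalled ones the largest changes serve as examples. Alternatives covered scaling, the log scale, the replicate number, sets of replicates, array weights, the variance prior, the genotypes in the fit, 1 probe set per gene and single omissions.

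Promoter sequence came from RefSeq (GRCm38.p6). Plots were drawn with Python 3.11.15 and matplotlib 3.10.9.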

Additional observations from a re-analysis of the deposited data

Results flagged for a closer look

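In 5 of 84 groups of 6 hearts, 1 heart stood apart from the other 5 by Dixon's criterion, and chance alone gives about 1 in 20. The groups were the called probe sets and the median over all Nduf probe sets, each by genotype. No heart stood apart in the medians. In ARG, replicate 4 had a ratio of 0.667 for Ndufaf1 (the other 5 at 0.774 to 0.843). In GLY, replicate 1 had 0.795 for Ndufaf7 (others 0.866 to 0.900). In AC5, replicate 3 had 0.653 for Ndufs4 at 1418117_at (others 0.764 to 0.820). In NTG, replicate 4 had 0.875 for Ndufs4 at 1448959_at (others 0.981 to 1.04) and replicate 5 had 0.981 for Ndufaf6 (others 1.04 to 1.07). All 5 were the lowest of their group. The ARG calls at Ndufaf1, Ndufaf6, Ndufaf7 and both Ndufs4 probe sets were kept in all 24 single omissions.

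Among the 10 probe sets that carry several symbols and were left out of the counts, 1416495_s_at (Ndufs5 and its pseudogene Ndufs5-ps) was called in ARG against NTG, with a log2 change of -0.24 and an adjusted p of 0.0163 by limma. Signal of the gene and of its copy cannot be told apart there. The probe set that carries Ndufs5 alone was not called.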

How the results depend on the processing

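Counts of Nduf probe sets called in either direction are given here. Their order is ARG against NTG, GLY against NTG, AC5 against NTG, ARG against GLY and ARG against AC5, and the counts reported above were 20, 10, 2, 2 and 4. They were 13, 7, 5, 0 and 2 after quantile normalization, 20, 11, 0, 2 and 7 with each array centred on its median, 19, 10, 2, 1 and 3 on the linear scale, and 19, 7, 0, 1 and 3 with a trended, robust variance prior. They were 22, 10, 6, 1 and 10 with array weights, 21, 10, 4, 1 and 10 with 1 weight per genotype, 22, 7, 4, 1 and 10 without GLY replicates 1 and 3 and ARG replicate 1, 18, 6, 5, 0 and 5 with only the arrays of the 2 genotypes, and 20, 12, 2, 2 and 6 with the set of replicates as a term. Replicates 1 to 3 alone gave 6, 9, 0, 0 and 1, replicates 4 to 6 alone 8, 0, 0, 0 and 3, and 1 probe set per gene (44 in all) 11, 6, 1, 2 and 5. GLY against AC5 had 0 in each of these settings. Leaving out 1 heart gave 13 to 21, 7 to 14, 0 to 2, 1 to 2 and 2 to 9. The lowest for GLY came without GLY replicate 3 or NTG replicate 3 and the highest without GLY replicate 6, and ARG against AC5 reached 9 without GLY replicate 3. In GLY against NTG 13 members fell without GLY replicate 6 and 11 with the set of replicates as a term. The remaining calls in those 2 fits were rises. Over all 81 Nduf pairs, the count that differed in ARG, reported above as 5, was 4 to 6 throughout. No probe set called against NTG or in ARG against GLY changed direction in these settings, and uncalled ones were not followed. The cause of these shifts was not tested, apart from fewer hearts in the subsets and fewer features with 1 probe set per gene.

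The labels number the hearts 1 to 6 in each genotype. The numbers did not pair the hearts: deviations of same-numbered arrays correlated from -0.29 to 0.49 (median 0.037), and 9 of 24 arrays correlated best with their own number. With the replicate number as a block the counts were 20, 11, 2, 2 and 4, and 6 pairs differed. The ratios keep no signal over background, so what dim signal limits cannot be seen.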
